A study of Homo sapiens with 5 samples.

Results

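The genes described here encode the translation initiation factors (EIF genes) and translation elongation factors (EEF genes) of the human cytosol, with the kinases, methyltransferases and binding proteins that carry the same name stem. They were taken as every protein-coding gene of GENCODE release 44 whose symbol starts with EIF or EEF, leaving out hyphenated readthrough genes and 1 further gene. This gave 69 genes of the 61220 genes that the tables could be paired with, and 736 of 227751 human transcripts. The 69 genes hold 9 role lists, from 3 genes of the eIF5A type to 14 genes of the eIF3 complex.

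Their mRNA was measured by long-read nanopore cDNA sequencing in 5 libraries made from 2 established human lung adenocarcinoma lines, NCI-H1975 and HCC827, grown independently and untreated as far as the labels say. RNA of NCI-H1975 carrying the synthetic spike-in transcripts sequins mixA and RNA of HCC827 carrying sequins mixB were combined by mass, with 1 RNA preparation of each line. The HCC827 part was 0% in the library called 100:0, 25% in 75:25, 50% in 50:50, 75% in 25:75 and 100% in 0:100, with 1 library each. Values for the 5 libraries are given in that order throughout, so the first is NCI-H1975 alone and the last is HCC827 alone. Because RNA was mixed by mass and no ratio was replicated, each comparison is between these RNA preparations, and differences between cultures of a line cannot be told apart from differences between the lines.

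In initiation, eIF2 bound to GTP brings the initiator tRNA to the small ribosomal subunit, where eIF1, eIF1A, eIF3 and eIF5 also bind, and eIF4F (the cap-binding eIF4E, the scaffold eIF4G and the helicase eIF4A) loads the mRNA. In elongation, eEF1A delivers aminoacyl-tRNA, the eEF1B subunits recharge eEF1A with GTP, and eEF2 moves the ribosome along. Kinases that phosphorylate the alpha subunit of eIF2 and the eIF4E binding proteins hold initiation back, the latter under control of mTOR signalling, a pathway that works downstream of growth factor receptors such as EGFR. Many mRNAs of the translation machinery begin with a cytosine followed by an unbroken run of pyrimidines, the 5′ terminal oligopyrimidine tract, which places their translation under the same signalling.

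The annotated transcript starts show which members carry such a tract. Below are the first 25 bases of the MANE Select transcript (the agreed reference transcript of a gene) of members that the results turn on, from GENCODE release 44 on GRCh38, in 5′ to 3′ direction of the transcript. Capitals mark a run that starts with C and holds at least 5 pyrimidines (C or T) in all, read on the transcript strand only. The last 4 have no such run and are shown for contrast. All of these bases lie in the first exon.
EEF1A1 (EEF1A1-201, chr6:73521008-73521032, minus strand): CTTTTTCgcaacgggtttgccgcca
EEF2 (EEF2-201, chr19:3985439-3985463, minus strand): CTCTTCCgccgtcgtcgccgccatc
EEF1B2 (EEF1B2-203, chr2:206159895-206159919, plus strand): CCTTTTTCCTCTCTTCagcgtgggg
EEF1A2 (EEF1A2-201, chr20:63499059-63499083, minus strand): CCCTCTggctgagacctcggctccg
EIF4A2 (EIF4A2-201, chr3:186783577-186783601, plus strand): CTTTTCagtcgggcgctgagtggtt
EIF4B (EIF4B-201, chr12:53006456-53006480, plus strand): CTTTTgcgttctctttccctctccc
EIF3F (EIF3F-209, chr11:7987337-7987361, plus strand): CTTCTTTCTCgacaagatggccaca
EIF3K (EIF3K-201, chr19:38619188-38619212, plus strand): CTCTTCCTgttcccgtccttgagga
EIF3A (EIF3A-201, chr10:119080793-119080817, minus strand): CCTTTCCgtctctggccggctgggc
EIF2S3 (EIF2S3-201, chrX:24054956-24054980, plus strand): CTCTTTTggcaacatggcgggcgga
EEF1G (EEF1G-201, chr11:62573867-62573891, minus strand): actttgcggcagcgccgagaacccc
EIF1 (EIF1-203, chr17:41688885-41688909, plus strand): gccccagtcactgagccgccgccga
EIF6 (EIF6-203, chr20:35284748-35284772, minus strand): agtccaaggtacagtcgccgcgtgc
EIF2AK2 (EIF2AK2-201, chr2:37156956-37156980, minus strand): gaaactgagaaccagctctcccgaa
The run was present in 21 of the 69 members (30.4%), against 5.62% of the MANE Select transcripts of 11738 genes tested. It is read from the annotation, and the tables do not say where the reads began.

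The libraries held 2926775, 4054073, 3876471, 3075587 and 3092629 human reads. Several properties of the libraries ran with the mixing ratio, and their part in the results below was not tested. The mean length of the transcripts that reads were assigned to went from 2581 to 2180 bases, mitochondrial transcripts took 5.65 to 8.85% of human reads, and the scaling factors of the TMM method (trimmed mean of M-values) were 1.16, 1.06, 1.00, 0.929 and 0.869. Sequin reads numbered 5475, 4678, 2830, 1269 and 0, so the 0:100 library had none although its label names mixB, and results are given with and without that library. All 6 epithelial markers looked up (KRT7, KRT8, KRT18, KRT19, EPCAM and CDH1) had at least 317 reads in each library. The 3 leukocyte markers had 0 to 4 reads in sum, with PTPRC and CD3E at 0 throughout, and the 3 endothelial markers 3 to 4, while the 3 fibroblast markers (COL1A1, COL1A2 and PDGFRB) had 630 reads in sum in the first library and 19 in the last.

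For each gene the reads of its transcripts were summed. A level is given in scaled CPM, which is the CPM value (reads over a common library size) after TMM scaling. The slope is the fitted log2 change over the whole series, from 0 to 100% HCC827 RNA, with its standard error (SE) from edgeR's quasi-likelihood test on the 5 libraries. A gene is said to have risen or fallen where that slope had a Benjamini-Hochberg adjusted p under 0.05 over all 13492 genes tested. Of the 69 members, 67 passed the filter of at least 10 reads in at least 2 libraries. The 2 others were EIF4E1B, an oocyte-type cap-binding gene with 0, 1, 1, 0 and 0 reads, and EIF2S3B, a copy of the EIF2S3 coding sequence with 5, 10, 4, 4 and 4 reads.

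More members rose than fell towards HCC827 under TMM scaling, and more fell than rose when libraries were scaled by their total human reads alone. Of the 67 tested members, 27 rose, 11 fell and 29 did not pass, beside 45.8% of all genes tested that were called, 23.5% rising and 22.3% falling. The median slope of the members was 0.21, against -0.03 over all genes tested. Under the latter scaling, called library totals alone below, 14 members rose and 26 fell, beside 51.1% of all genes called, 13.4% rising and 37.7% falling. That scaling moved the median slope of all genes to -0.44 and that of the members to -0.20. In both cases the members' median lay above that of all genes. Levels ran in order over the 5 libraries for 27 of the 67 members, beside 28.5% of all genes tested. Without the 0:100 library 22 members rose and 7 fell, beside 30.5% of all genes called in either direction. Of the 38 calls 29 remained, none with the opposite direction.

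**Figure D1:**
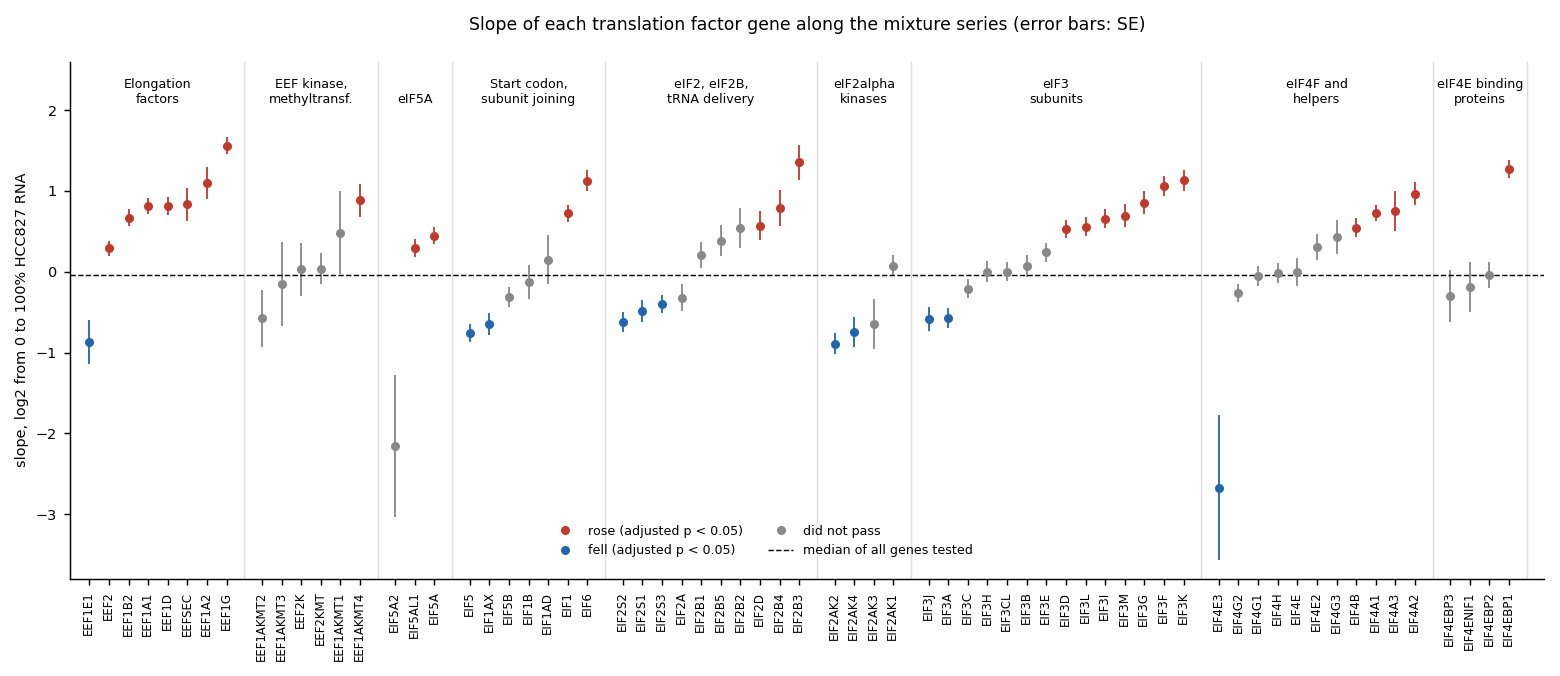
Slope of each of the 67 tested members (log2 change from 0 to 100% HCC827 RNA under TMM scaling, vertical axis), grouped by role; points are slopes, bars are SE, and the dashed line is the median of all genes tested (-0.03). Among the elongation factors 7 of 8 points are red (rose) and EEF1E1 is blue (fell), while no eIF2alpha kinase is red. Of all genes tested 23.5% rose and 22.3% fell.

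As a share of human reads, the members together took 2.44, 2.59, 2.62, 2.63 and 2.74%. This sum was carried by the elongation factors, which took 1.13, 1.29, 1.37, 1.42 and 1.53%. The eIF3 genes took 0.343% in both pure libraries. The genes of eIF2, eIF2B and initiator tRNA delivery went the other way, with 0.181, 0.164, 0.135, 0.115 and 0.111%, and the eIF2alpha kinases went from 0.0492 to 0.0266%. These shares use no scaling factor. The 95% Wilson intervals of the pure libraries were 1.12 to 1.15% and 1.52 to 1.54% for the elongation factors, 0.177 to 0.186% and 0.107 to 0.115% for the eIF2 group, and 0.0468 to 0.0518% and 0.0249 to 0.0285% for the kinases. They cover counting error only, since PCR copies count as separate reads.

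The core of eIF2 fell, under both scalings, while parts of its exchange factor rose under TMM scaling. All 3 eIF2 subunit genes fell: EIF2S1, which encodes the regulated alpha subunit, EIF2S2 (beta) and EIF2S3 (gamma). EIF2S2, with most reads of this group, stood at 896, 848, 691, 577 and 631 scaled CPM, highest in NCI-H1975 alone and lowest in the 25:75 library. Its slope was -0.62 ± 0.13 (SE; edgeR adjusted p = 0.00176). EIF2S1 had a slope of -0.48 ± 0.14 (edgeR adjusted p = 0.0108) and EIF2S3 of -0.40 ± 0.11 (edgeR adjusted p = 0.0118). Without the 0:100 library the slopes of EIF2S1 and EIF2S3 were -0.40 and -0.36, and neither passed.

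The exchange factor eIF2B reloads eIF2 with GTP and is built from 5 subunits. EIF2B3 (gamma) rose from 16.5 to 42.4 scaled CPM, with 23.9, 27.5 and 39.9 in the mixed libraries, so its levels ran in order. The slope of EIF2B3 was 1.35 ± 0.22 (edgeR adjusted p = 2.77e-04), from 56, 103, 107, 114 and 114 reads. EIF2B4 (delta) also rose, with a slope of 0.79 ± 0.23 (edgeR adjusted p = 0.0123), but its call was lost under 4 of the 14 alternatives (library totals alone, protein-coding transcripts only and leaving out either pure library). EIF2B1, EIF2B2 and EIF2B5 did not pass, with slopes of 0.21, 0.54 and 0.38, although EIF2B2 did with the length trend described below removed. Of the alternative initiator tRNA carriers, EIF2D rose by 0.57 ± 0.18 (edgeR adjusted p = 0.0206), a call lost under 7 of the 14 alternatives, and EIF2A had a slope of -0.32 ± 0.17 (edgeR adjusted p = 0.142), which passed as a fall with library totals alone. In all, 3 of the 10 tested genes of this group rose and 3 fell, against 1 and 4 with library totals alone, which is near the shares of all genes given above.

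Of the 4 eIF2alpha kinases 0 rose and 2 fell under TMM scaling, beside 23.5% and 22.3% of all genes. Library totals alone gave 0 that rose and 4 that fell, beside 13.4% and 37.7%. A count of 0 rising among 4 genes is near those shares. These 4 kinases sense different stresses: EIF2AK1 (HRI) haem shortage, EIF2AK2 (PKR) double-stranded RNA, EIF2AK3 (PERK) misfolded protein in the endoplasmic reticulum and EIF2AK4 (GCN2) amino acid shortage. EIF2AK2 stood at 175, 154, 132, 123 and 89.3 scaled CPM, highest in NCI-H1975 alone and lower with each step towards HCC827. Its slope was -0.89 ± 0.13 (edgeR adjusted p = 1.63e-04), and the pure libraries differed 1.96-fold (95% counting interval 1.69 to 2.29). EIF2AK4 fell from 56.9 to 36.1 scaled CPM, with a slope of -0.75 ± 0.18 (edgeR adjusted p = 0.00461). EIF2AK3 was lowest in HCC827 alone (20.6, 23.6, 18.2, 21.0 and 11.5 scaled CPM), but its slope of -0.65 ± 0.31 did not pass (edgeR adjusted p = 0.106). It passed without the 100:0 library and with library totals alone.

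EIF2AK1 did not pass under TMM scaling. Its levels were 172, 168, 174, 195 and 169.7 scaled CPM, with a slope of 0.07 ± 0.13 (edgeR adjusted p = 0.656). The EIF2AK1 slope was -0.34 and passed with library totals alone, so all 4 kinases fell under that scaling, beside 37.7% of all genes. Per kilobase of assigned transcript, the ratio of EIF2AK1 to EIF2AK2 was 1.78, 1.99, 2.39, 2.88 and 3.45. A ratio within a library does not depend on the scaling between libraries, and it ran in order. Its size rests on the assigned lengths, with means of 4174 and 7574 bases, and whether read counts grow with length was not tested. Not divided by length, EIF2AK1 had 584 reads and EIF2AK2 594 in NCI-H1975 alone, and 456 and 240 in HCC827 alone. The slopes of EIF2AK1 and EIF2AK2 were 0.07 and -0.89 under TMM scaling, and 0.23 and -0.55 with the length trend described below removed.

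Among the factors of start codon selection and subunit joining, 2 of 7 genes rose and 2 fell under TMM scaling, near the 23.5% and 22.3% of all genes. With library totals alone 2 rose and 4 fell, beside 13.4% and 37.7%. EIF1, which guards start codon choice, stood at 954, 1109, 1294, 1473 and 1549 scaled CPM, rising at each step. Its slope was 0.72 ± 0.10 (edgeR adjusted p = 1.29e-04). EIF6, which keeps the large ribosomal subunit from joining too early, went from 219.7 to 512 scaled CPM, a slope of 1.13 ± 0.13 (edgeR adjusted p = 2.64e-05).

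Other factors that bind the small subunit fell under both scalings. EIF5, the GTPase-activating protein of eIF2, stood at 257, 232, 203, 174 and 154 scaled CPM, falling at each step. The EIF5 slope was -0.76 ± 0.11 (edgeR adjusted p = 1.79e-04). EIF1AX, the X-linked gene of eIF1A, fell from 204 to 129.5 scaled CPM with a slope of -0.65 ± 0.14 (edgeR adjusted p = 0.0018). EIF5B, the subunit-joining GTPase, had a slope of -0.31 ± 0.13 (edgeR adjusted p = 0.0596) and did not pass. It passed as a fall under 4 of the 14 alternatives (limma-voom, at least 10 reads in every library, library totals alone and without the 100:0 library). EIF1B and EIF1AD had slopes of -0.13 and 0.15, and EIF1B passed as a fall with library totals alone. EIF1B, a paralog of EIF1 with 82.2% identical coding bases, took 2.94, 2.47, 2.02, 1.66 and 1.75% of the reads of the pair.

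In the eIF3 complex, the scaffold of the small subunit, 7 of 14 genes rose and 2 fell under TMM scaling, beside 23.5% and 22.3% of all genes. Library totals alone gave 3 that rose and 6 that fell, beside 13.4% and 37.7%. Under TMM scaling EIF3D, EIF3F, EIF3G, EIF3I, EIF3K, EIF3L and EIF3M rose and EIF3A and EIF3J fell, while EIF3B, EIF3C, EIF3CL, EIF3E and EIF3H did not pass. EIF3K stood at 188, 267, 317, 366 and 432 scaled CPM, higher at each step. Its slope was 1.13 ± 0.13 (edgeR adjusted p = 2.56e-05). EIF3F stood at 216, 277, 329, 421 and 437 scaled CPM with a slope of 1.06 ± 0.13 (edgeR adjusted p = 3.37e-05). EIF3G, with most reads of the complex, stood at 285, 376, 403, 399 and 577 scaled CPM, out of order only between the 50:50 and 25:75 libraries.

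The calls of EIF3D, EIF3I, EIF3L and EIF3M were lost with library totals alone, while EIF3F, EIF3G and EIF3K kept theirs under every alternative run. EIF3F and EIF3M, which bind each other within eIF3, kept rising slopes of 1.38 and 0.75 when the length trend was removed, and EIF3K and EIF3L, which pair with each other, slopes of 0.84 and 0.43. EIF3A, the largest subunit and a core scaffold, stood at 319.9, 291, 265, 256 and 207 scaled CPM, lower at each step. The EIF3A slope was -0.57 ± 0.12 (edgeR adjusted p = 0.00185). It was -0.28 with the length trend removed, which did not pass. EIF3J, a loosely bound subunit, fell by 0.58 on the log2 scale (SE 0.15; edgeR adjusted p = 0.00676) and kept its call with the length trend removed.

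Within eIF4F the helicases EIF4A1 and EIF4A2 rose under both scalings, and no cap-binding or scaffold gene rose under either. EIF4A1, the main helicase, stood at 899, 1096, 1182, 1332 and 1529 scaled CPM, higher at each step. Its slope was 0.72 ± 0.10 (edgeR adjusted p = 1.11e-04). EIF4A2 stood at 87.0, 126, 124, 151 and 186 scaled CPM, a slope of 0.96 ± 0.14 (edgeR adjusted p = 1.69e-04). EIF4A3, the helicase of the exon junction complex, was lowest in NCI-H1975 alone (33.9 scaled CPM against 54.0 to 69.6 in the others). Its slope of 0.75 ± 0.24 passed (edgeR adjusted p = 0.0234), but without the 100:0 library it was 0.24 and did not, nor did it pass without the 25:75 library or with library totals alone. EIF4B, which stimulates the helicase, rose by 0.55 ± 0.12 (edgeR adjusted p = 0.0026), and with library totals alone the EIF4B slope was 0.14 and did not pass. EIF4H, which acts likewise, stood at 447, 485, 492, 476 and 446 scaled CPM and passed, as a fall, only with library totals alone.

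Neither the cap-binding EIF4E nor any scaffold passed in edgeR's test with TMM scaling and the read filter above. EIF4E stood at 45.7, 49.4, 43.9, 43.7 and 48.8 scaled CPM, and the SE of its slope was 0.17. EIF4G1, EIF4G2 and EIF4G3 had slopes of -0.05, -0.27 and 0.42, with edgeR adjusted p of 0.77, 0.0714 and 0.116. EIF4G1 and EIF4G2 fell by 0.46 and 0.68 on the log2 scale with library totals alone, and with the length trend removed EIF4G3 rose by 0.66. EIF4G2 also passed as a fall with limma-voom, with at least 10 reads in every library and with protein-coding transcripts only. EIF4E2, a cap-binding protein that represses translation, had a slope of 0.30 ± 0.16 (edgeR adjusted p = 0.145). EIF4E3, a divergent cap-binding protein, had 14, 16, 9, 5 and 0 reads, and its scaled levels ran in order. It was at least 3.70-fold lower in HCC827 alone where 3 reads are taken as the most that a count of 0 allows and the 14 reads as exact. With counting error in both libraries the 95% interval of the ratio begins at 2.63-fold. Its fall passed (edgeR adjusted p = 0.0266), and without the 0:100 library it did not. Of the 11 tested eIF4F genes, 4 rose and 1 fell, beside 23.5% and 22.3% of all genes. With library totals alone 2 rose and 4 fell, beside 13.4% and 37.7%. With so few genes, neither pair of counts can be told apart from those shares.

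Of the eIF4E binding proteins, EIF4EBP1 alone passed under TMM scaling. EIF4EBP1 stood at 134, 177, 218, 266 and 330.5 scaled CPM from 455, 763, 847, 760 and 888 reads, so that each library was higher than the one before. Its slope was 1.27 ± 0.12 (edgeR adjusted p = 6.04e-06), the pure libraries differed 2.46-fold (95% counting interval 2.20 to 2.76), and its call held under every alternative run. EIF4EBP2 stood at 81.7, 77.4, 83.5, 91.0 and 71.5 scaled CPM with a slope of -0.04 ± 0.16 (edgeR adjusted p = 0.85). The EIF4EBP2 slope was -0.45 and passed with library totals alone.

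EIF4EBP3 and EIF4ENIF1, which carries eIF4E to processing bodies, had 27 to 64 reads in each library and slopes of -0.30 and -0.19. Per kilobase of assigned transcript the ratio of EIF4EBP1 to EIF4EBP2 was 16.2, 22.5, 25.7, 28.8 and 45.5, and that of EIF4EBP1 to EIF4E was 39.9, 48.7, 67.3, 82.6 and 92.1. Both ratios ran in order. Their size depends on the long transcripts that reads of EIF4EBP2 and EIF4E were assigned to. Mean lengths were 7491 and 10335 bases there, against 761 bases for EIF4EBP1. Not divided by length, the genes lay far closer: EIF4EBP1 had 455 and 888 reads in the pure libraries, EIF4EBP2 277 and 192, and EIF4E 155 and 131. Whether read counts grow with transcript length in these libraries was not tested, so the division may not apply. The trend of the ratios also depends on length. Under TMM scaling the slopes of EIF4EBP1, EIF4EBP2 and EIF4E were 1.27, -0.04 and -0.0033. They lay closer together, at 0.98, 0.29 and 0.40, with the length trend described below removed.

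**Figure D2:**
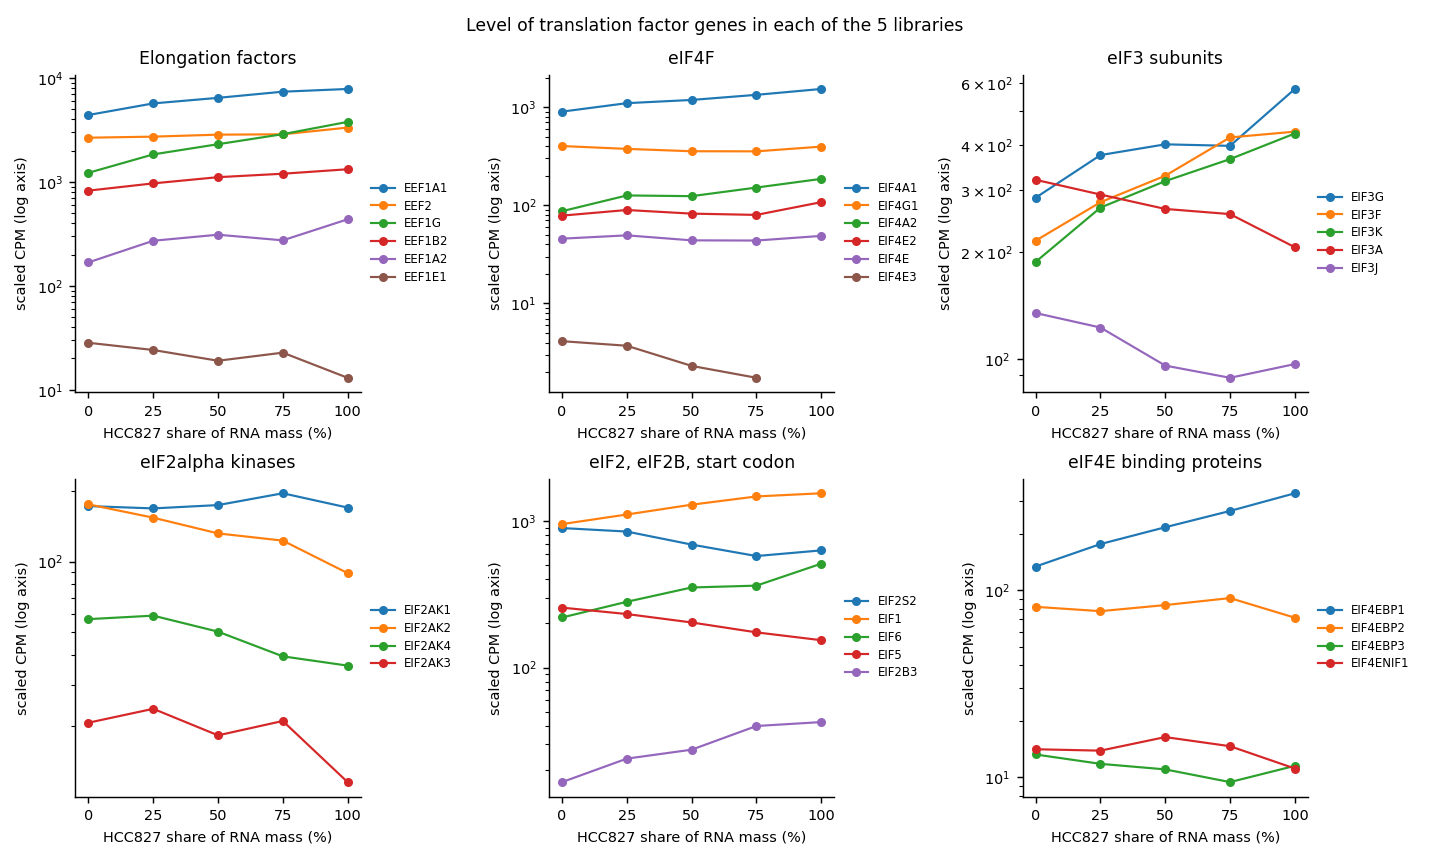
Level of selected members in scaled CPM (log axis) against the HCC827 share of RNA mass, 1 point per library and 1 panel per role. The lines of EEF1G, EIF4EBP1 and EIF2B3 go up at every step, those of EIF2AK2, EIF3A and EIF5 go down at every step, and EIF4E3 has no point in the last library, where it had 0 reads.

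Most of the elongation factors rose. Of 8 genes, 7 rose and EEF1E1 fell, beside 23.5% and 22.3% of all genes. Library totals alone left 5 that rose, and EEF1E1 fell, beside 13.4% and 37.7%. EEF1A1, which delivers aminoacyl-tRNA, stood at 4406, 5694, 6441, 7383 and 7842 scaled CPM, higher at each step. Its slope was 0.81 ± 0.10 (edgeR adjusted p = 2.84e-05), from 14945 to 25078 reads a library. EEF1A2, its tissue-restricted paralog with 78.2% identical coding bases, stood at 168, 271, 310.3, 274 and 437 scaled CPM. The slope of EEF1A2 was 1.097 ± 0.20 (edgeR adjusted p = 6.32e-04), with the 25:75 library out of order. Per kilobase, EEF1A1 was 13.6, 10.9, 10.8, 14.0 and 9.34 times as high as EEF1A2. Not divided by length, EEF1A1 had 14945 and 21071 reads in the pure libraries and EEF1A2 570 and 1173, a wider gap.

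The 3 genes of the eEF1B exchange complex rose by unequal amounts. EEF1G, the structural gamma subunit, stood at 1223, 1839.9, 2306, 2880.5 and 3781 scaled CPM, higher at each step. This was the largest rise of any member, with a slope of 1.56 ± 0.11 (edgeR adjusted p = 2.00e-06) and a 3.09-fold difference between the pure libraries (95% counting interval 2.98 to 3.21). EEF1D and EEF1B2, the 2 subunits that exchange the nucleotide, had slopes of 0.82 ± 0.11 (edgeR adjusted p = 9.42e-05) and 0.67 ± 0.10 (edgeR adjusted p = 2.26e-04). All 3 calls held under every alternative run.

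EEF2, the translocase, changed least of the group. Its levels were 2663, 2727, 2849, 2872 and 3332 scaled CPM, and its slope of 0.29 ± 0.09 passed narrowly (edgeR adjusted p = 0.022). The EEF2 slope was -0.12 with library totals alone and 0.15 without the 0:100 library, neither of which passed, and the call was lost under 7 of the 14 alternatives. EEFSEC, which brings selenocysteine to the ribosome, rose from 20.3 to 36.8 scaled CPM with a slope of 0.83 ± 0.21 (edgeR adjusted p = 0.0057), which did not pass with library totals alone or without the 0:100 library. EEF1E1, named as an elongation factor but known as a scaffold of the multi-tRNA synthetase complex, stood at 28.3, 24.1, 19.0, 22.7 and 13.0 scaled CPM. Its slope was -0.87 ± 0.28 (edgeR adjusted p = 0.0205), and without the 0:100 library it was -0.56 and did not pass, nor did it without the 100:0 library or with DESeq2's Wald test.

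The enzymes that modify elongation factors were low and mostly did not pass. EEF2K, the kinase that halts eEF2, had 29 to 59 reads a library and a slope of 0.03 ± 0.33 (edgeR adjusted p = 0.952), so that only large changes were detectable at this depth. EEF2KMT, EEF1AKMT1, EEF1AKMT2 and EEF1AKMT3 had slopes of 0.04, 0.48, -0.58 and -0.15 with SEs of 0.19, 0.52, 0.35 and 0.52, and EEF1AKMT2 passed as a fall with library totals alone. EEF1AKMT4, a lysine methyltransferase of eEF1A, stood at 20.05, 22.3, 27.2, 30.8 and 36.5 scaled CPM and rose by 0.88 ± 0.21 (edgeR adjusted p = 0.00394). Its slope was 0.47 and did not pass with library totals alone.

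EIF5A, which carries the modified amino acid hypusine and helps ribosomes through stretches such as prolines, could not be separated from its copy EIF5AL1. EIF5A lies at chr17:7306999-7312463 (plus strand) and the copy at chr10:79512533-79516440 (plus strand). Their coding sequences share 460 of 465 bases (98.9%). The stretch below, coding positions 4 to 123 counted from the A of the start codon, holds 3 of the 5 differing bases, in capitals, and is shown because reads over it are all but identical for both genes.
EIF5A (EIF5A-202): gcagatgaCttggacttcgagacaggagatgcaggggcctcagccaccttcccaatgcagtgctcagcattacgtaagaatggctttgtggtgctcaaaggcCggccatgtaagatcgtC
EIF5AL1 (EIF5AL1-201): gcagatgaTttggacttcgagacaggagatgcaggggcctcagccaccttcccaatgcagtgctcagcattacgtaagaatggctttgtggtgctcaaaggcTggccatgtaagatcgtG
EIF5A had 2039, 2799, 2550, 2192 and 2190 reads and EIF5AL1 2056, 2894, 2656, 2009 and 2056. EIF5AL1 thus took 50.2, 50.8, 51.0, 47.8 and 48.4% of the pair, near an even split in every library. How reads that match both were divided is not given in the sources used here, so the level of each gene is uncertain. The slopes were 0.45 ± 0.11 (edgeR adjusted p = 0.00507) for EIF5A and 0.30 ± 0.11 (edgeR adjusted p = 0.0398) for EIF5AL1. They were 0.04 and -0.11 with library totals alone, and neither passed. The call of EIF5AL1 was lost under 7 of the 14 alternatives, 4 of which left out 1 library (any but 25:75), and that of EIF5A also with the length trend removed.

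EIF5A2, the other paralog, with 71.6% identical coding bases, had 15, 42, 23, 7 and 1 reads. It was highest in the 75:25 library and lowest in HCC827 alone, 11.9-fold below NCI-H1975 alone as the ratio from 1 read, with a 95% counting interval of 1.83 to 500.3. With that count raised to 3 reads, as for the count of members at least 2-fold apart below, it is 3.96-fold. Its slope of -2.15 ± 0.88 did not pass (edgeR adjusted p = 0.0606), and it passed with library totals alone, with DESeq2's Wald test, with no read filter and without the 100:0 library. EIF3C and EIF3CL are a second pair of this kind, with 2742 identical coding bases and a gap of 3, both on chromosome 16. EIF3CL took 29.9, 30.3, 31.9, 32.1 and 33% of the reads of that pair, and neither gene passed under TMM scaling. EIF2S3B, which shares 98.2% of coding bases with EIF2S3, took at most 0.833% of its pair.

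**Figure D3:**
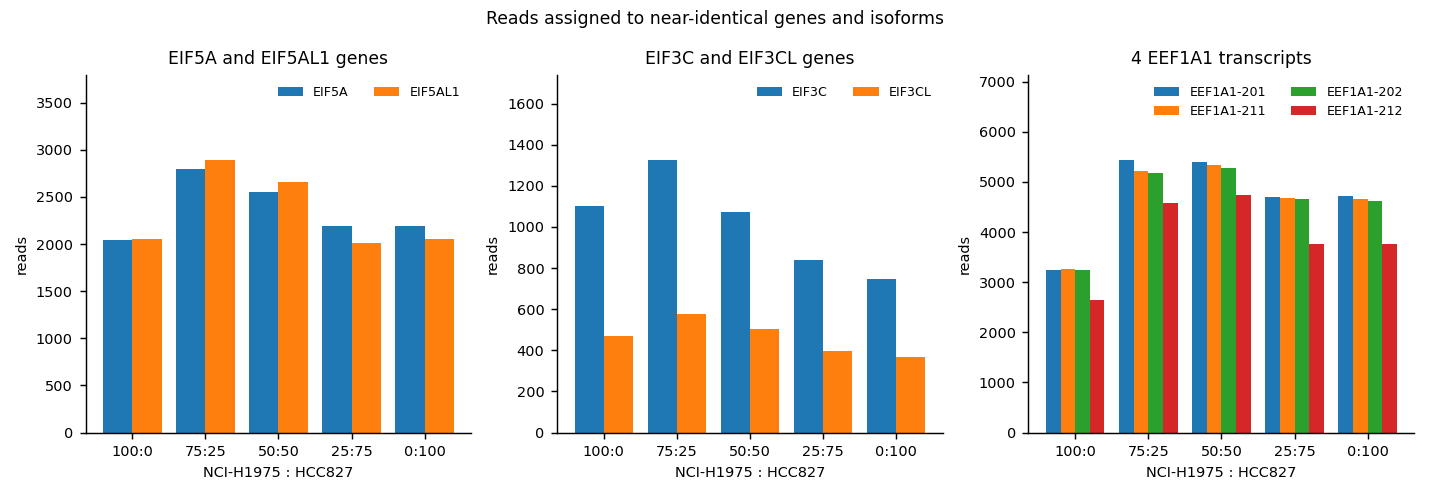
Reads per library assigned to EIF5A and EIF5AL1 (left), EIF3C and EIF3CL (middle) and 4 EEF1A1 transcripts (right); bars are read counts, not scaled for library size. The EIF5A and EIF5AL1 bars are close to equal in all 5 libraries, as are those of EEF1A1-201, EEF1A1-211 and EEF1A1-202.

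Between the pure libraries, 13 of 67 members were at least 2-fold apart on the scaled level. Of these, 10 were higher in HCC827, beside 16.3% of all genes compared, and 3 were lower, beside 18.4%. The 10 were EEF1A2, EEF1G, EIF2B3, EIF2B4, EIF3F, EIF3G, EIF3K, EIF4A2, EIF4EBP1 and EIF6, and the 3 were EEF1E1, EIF4E3 and EIF5A2. In order over the 5 libraries were 7 of the 13, beside 53.9% of all genes at least 2-fold apart. With library totals alone 1 member was at least 2-fold higher and 9 were at least 2-fold lower. The shares of all genes past 2-fold were not counted under that scaling. It moved the median slope of all genes to -0.44, so these counts cannot be read as particular to the members.

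Under TMM scaling shorter members rose more often than longer ones. Of the 33 members with a mean assigned length under 2556 bases, 22 rose and 2 fell, and of the 34 longer ones 5 rose and 9 fell. The shares of all genes under and over that length that rose or fell were not counted. Counts split by length, here and below, therefore cannot be read as particular to the members. Over the 67 members, slope and log2 length had a Pearson r of -0.49 and a Spearman rho of -0.53, a description over genes that share the same 5 libraries. Over all 13492 genes the same r was -0.16. A smooth trend on length of the levels in each library, taken relative to the mean of each gene, was then removed and the slopes were refitted. After this, 19 shorter members rose and 2 fell, 7 longer ones rose and 8 fell, and r over the members was -0.26. In all 26 members then rose and 10 fell, beside 23.3% and 21.1% of all genes.

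**Figure D4:**
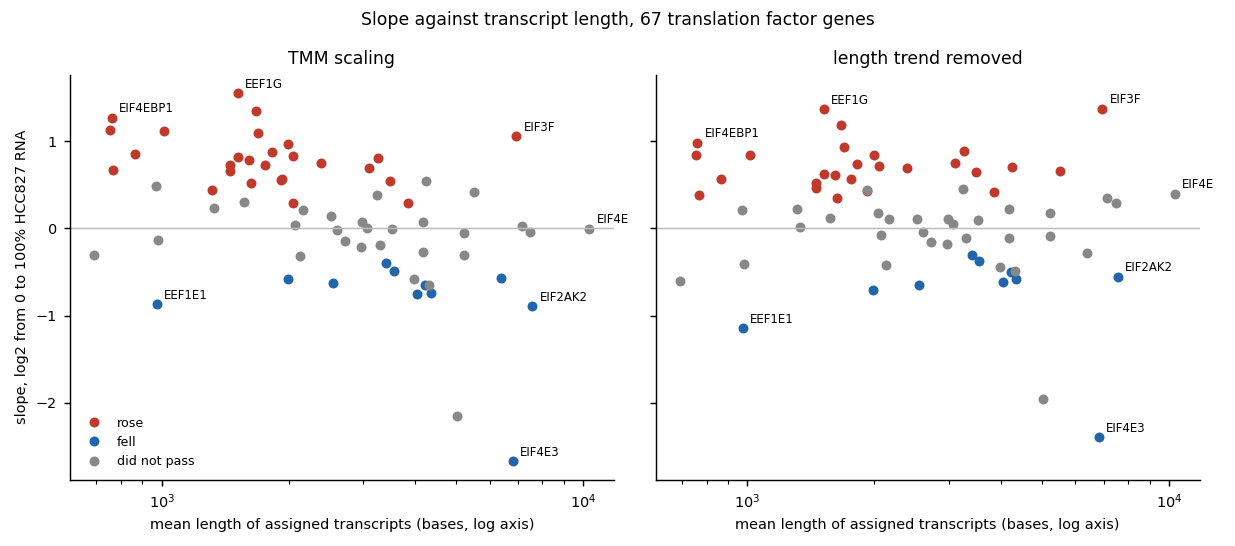
Slope of the 67 tested members against the mean length of the transcripts their reads were assigned to (log axis), with TMM scaling (left) and with the length trend of all genes removed (right). Short members such as EIF4EBP1 and EEF1G lie high and long ones such as EIF2AK2 lie low, with EIF3F (long, rising) and EEF1E1 (short, falling) as the opposite cases. The mean length of EIF3F rests largely on EIF3F-207 and EIF3F-209, with 2655 and 2614 reads. How reads were divided between them is not given in the sources used here.

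The members with an annotated pyrimidine run at the start lay higher than the rest. Of the 20 tested members with the run, 13 rose and 2 fell (EIF3A and EIF2S3), with a median slope of 0.55. Of the 47 without it, 14 rose and 9 fell, with a median of 0.04. Over all genes with the run, 42.6% of 660 rose and 16.7% fell, with a median of 0.37, against 23.1% and 23.3% of the 11078 genes without it. With library totals alone the members' medians were 0.14 with the run and -0.37 without, and with the length trend removed 0.40 and 0.12. The members with the run were shorter, with a median length of 2087 bases against 2605. Several of the largest rises had no run, among them EEF1G, EIF4EBP1, EIF2B3 and EIF6, as the printed starts of EEF1G and EIF6 show.

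**Figure D5:**
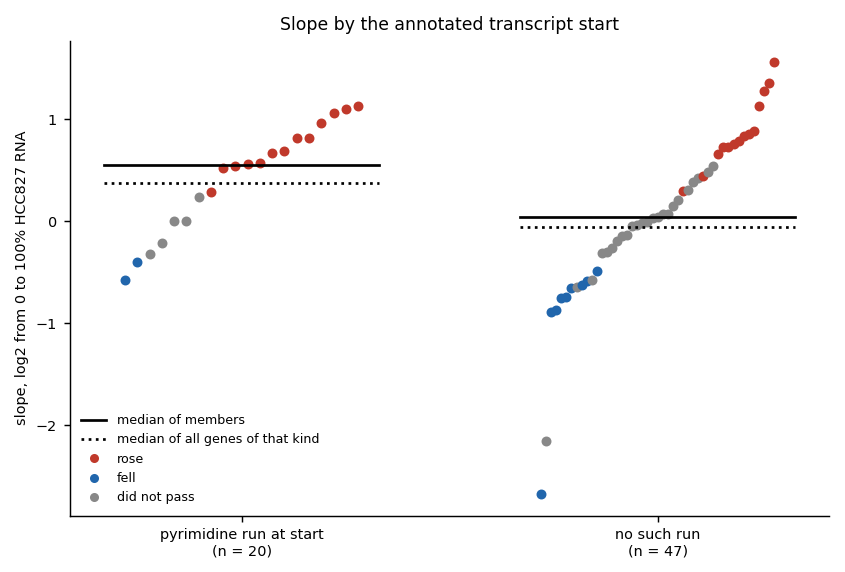
Slope of each tested member with (left, n = 20) and without (right, n = 47) a pyrimidine run at the annotated start of its MANE Select transcript; solid lines are medians of the members (0.55 and 0.04) and dotted lines medians of all genes of that kind (0.37 and -0.05). Within each column points are sorted by slope, and both columns hold rising and falling genes.

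At the level of single transcripts, 597 of the 736 member transcripts had reads and 260 passed the read filter. Of these 79 rose and 25 fell, beside 17.5% and 16.1% of the 31758 transcripts tested. With library totals alone 30 rose and 56 fell, beside 37.7% of all transcripts called in either direction. That scaling moved the median slope of all transcripts from -0.03 to -0.38, and the shares of all transcripts that rose and fell under it were not counted. Transcripts annotated as protein coding held 86.1% of the members' reads, retained-intron transcripts 9.58% and transcripts marked for nonsense-mediated decay 2.08%, against 83.1%, 8.12% and 4.68% over all protein-coding genes.

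Reads were often divided almost evenly between transcripts of a gene. EEF1A1-201, EEF1A1-211 and EEF1A1-202 had 3233, 3259 and 3245 reads in the 100:0 library and 4724, 4658 and 4610 in the 0:100 library. Of 57 members with a second transcript of at least 10 reads, 22 had their 2 leading transcripts within 1.1-fold of each other. How reads were divided among similar transcripts is not given in the sources used here, so isoform levels of such members are uncertain.

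No member passed the test of isoform usage, which asks whether a transcript changes against the others of its gene (edgeR's diffSpliceDGE with Simes p-values). Of 53 members tested, 0 passed, beside 0.402% of 7455 genes, and 1 member had an unadjusted p under 0.05. That member was EEF2 (unadjusted p = 0.00278, edgeR adjusted p = 0.256), and the gene-level F test of the same tool called it, beside 0.858% of all genes, with 5 members at an unadjusted p under 0.05. Its full-length transcript EEF2-201 had 5346, 6918, 6657, 5195 and 5407 reads and the short retained-intron transcript EEF2-204 had 82, 96, 59, 36 and 48. EEF2-204 fell (slope -0.78 ± 0.29, edgeR adjusted p = 0.0437) while the gene rose under TMM scaling. It held 0.908% of EEF2 reads in NCI-H1975 alone and 0.536% in HCC827 alone. After EEF2 the smallest unadjusted p-values were those of EEF1B2 (0.0842), EIF3C (0.0984), EIF2AK2 (0.0985), EIF4E2 (0.103) and EIF3L (0.111).

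Overlapping genes limit some of these values, because a read from the shared stretch could be counted for either. Of the members, 35 overlap another gene with reads, and for 13 an overlapping gene had at least 20% as many reads. EIF4A1 had 20295 reads over the 5 libraries, while a lncRNA gene on the same strand (ENSG00000264772) had 7867 and the readthrough gene SENP3-EIF4A1 4432. EEF1G had 39456 reads and an overlapping protein-coding gene on the same strand (ENSG00000255508) 5351. EIF4EBP3 had 197 reads, as many as the readthrough gene ANKHD1-EIF4EBP3. Whether strand was used in counting is not given in the sources used here. EEFSEC, EIF2A, EIF4EBP3, EIF4ENIF1 and EEF1AKMT3 had fewer reads than a gene on the opposite strand (RUVBL1, SERP1, SRA1, DRG1 and METTL1), and their levels are uncertain for that reason.

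Other genes of the pathway, listed without regard to the EIF and EEF names, were called about as often as all genes under TMM scaling. Of 41 genes found, 9 rose, 11 fell and 21 did not pass, beside 23.5% and 22.3% of all genes that rose and fell. Scaled by library totals alone, 6 rose and 22 fell, beside 13.4% and 37.7%. The largest rises were those of GSPT2, a termination factor with levels of 0, 0.927, 2.83, 2.45 and 5.58 scaled CPM, MKNK1, a kinase of eIF4E, and DPH2, which takes part in making the diphthamide of eEF2. MKNK1 stood at 8.55, 15.1, 18.7, 27.99 and 39.4 scaled CPM, higher at each step, with a slope of 2.07 ± 0.25 (edgeR adjusted p = 3.08e-05). DPH2 had a slope of 1.302 ± 0.28 (edgeR adjusted p = 0.00215). The largest falls were those of DHX29, a helicase of the scanning ribosome (-1.25 ± 0.22), DPH3, a further diphthamide gene (-1.01 ± 0.23), and RPS6KB1, the ribosomal protein S6 kinase (-0.86 ± 0.26). PPP1R15A, the phosphatase subunit that reverses eIF2alpha phosphorylation, was chosen after its values were seen: it went from 44.5 to 86.3 scaled CPM, a slope of 0.82 ± 0.16 (edgeR adjusted p = 0.0011).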

How the data were processed

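The 69 genes, their role lists, the pathway list and the tests were chosen with earlier results of these data known. The authors deposited 1 table per library with estimated counts of reads per transcript, which are not scaled. All but 2 values were whole, and those 2 were rounded. Per the submitters' processing notes, minimap2 2.24, Salmon 1.9.0 and GRCh38 were used, with no role given. The annotation release is not given in the sources used here. Per the labels' protocols, poly(A) RNA was made into barcoded PCR cDNA and size-selected, which can act on transcript length. The tables list a transcript length, of which 668 of 736 member transcripts matched GENCODE release 44.

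Identifiers listed again were summed and paired with GENCODE release 44, which covered 98.6% of human reads. Counts were fitted with edgeR 4.0.16 in R 4.3.3 (TMM, at least 10 reads in at least 2 libraries, slope on the HCC827 mass fraction, Benjamini-Hochberg threshold 0.05). The SE is the slope over the square root of F, and the common biological coefficient of variation was 9.11%. For genes near 0 in 1 line the log2 slope understates the ratio, because mixing is linear in counts. Alternatives used library totals, DESeq2 1.42.0, limma 3.58.1, other filters, protein-coding transcripts, added pseudogenes, a lowess length correction and each library left out. The fits were also run on simulated linear mixtures with 200 changed genes. The simulation held no trend on length or other library properties, so it does not test the choice of scaling.

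Named members are the 8 with most reads, the 8 largest rises and falls, the leading genes of each role, fixed paralog sets and the smallest isoform p-values, and the others were named to account for every member. To count members past 2-fold in the unmixed libraries, reads under 3 were set to 3. The fold of EIF5A2 is printed from its own count of 1.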

Additional observations from a re-analysis of the deposited data

Results flagged for a closer look

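Reads were also assigned to features outside the gene sums of the report, above the 3 reads that a count of 0 allows. Pseudogenes named after EIF2S2 held 986 reads over the 5 libraries (206, 284, 243, 133 and 120), beside 12734 for the gene. Pseudogenes of EEF1A1 held 294 reads, of EIF5A 69, of EIF4B 31, of EEF1B2 27, of EIF1AX 20, of EIF5 8, of EIF4E 5, of EIF4H 4 and of EEF1G 4. Of the readthrough genes, SENP3-EIF4A1 held 4432 reads (700, 1012, 970, 889 and 861) and ANKHD1-EIF4EBP3 197 (35, 43, 49, 50 and 20). Adding the pseudogene reads to their parent genes left the counts at 27 members that rose and 11 that fell.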

How the results depend on the processing

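Each slope was refitted under 14 alternatives, except that the read filter left EIF4E3 with 11 and EIF5A2 with 13. Of the 38 called members 20 kept their call and direction in all of them. No called member passed with the opposite direction in any of them. EIF5AL1 and EEF2 were the 2 called members whose slope changed sign, both with library totals alone and neither passing there. The choice of scaling moved several counts: with library totals alone 14 members rose and 26 fell, 30 member transcripts rose and 56 fell, and 1 member was at least 2-fold higher and 9 at least 2-fold lower in HCC827. It also moved the median slope of all genes to -0.44 and that of all transcripts to -0.38. That alternative uses only totals, and which scaling is nearer to the RNA content of the cells was not tested. Leaving out each library in turn gave 29 to 37 called members, 22 to 26 rising and 7 to 12 falling. Of all genes, 30.5 to 44.2% were called in these runs, and the lowest count of member falls came without the 0:100 library. Over transcripts the same ranges were 62 to 96 called, 50 to 74 rising and 9 to 22 falling, beside 20.1 to 33.5% of all transcripts called. The lowest transcript counts came without the 0:100 library for all calls and for falls, and without the 100:0 library for rises (50). No library left out gave a member with changed isoform usage, and the gene-level F test gave 1 (EEF2). With DESeq2's Wald test 9 member transcripts fell, beside 19.1% of all transcripts called in either direction. At a threshold of 1.5-fold between the pure libraries 22 members were higher and 9 lower in HCC827. With a floor of 10 reads 1 was at least 2-fold lower. The shares of all genes were not counted for either setting.

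Apart from EIF5AL1 and EEF2, the slopes that changed sign belonged to members that had not passed, and the cause was not tested. With library totals alone the slopes were -0.11 for EIF4E2, -0.0255 for EIF2B5, -0.34 for EIF3B, -0.34 for EIF2AK1, -0.17 for EIF3E, -0.11 for EIF5AL1, -0.26 for EIF1AD, -0.20 for EIF2B1, -0.37 for EEF2KMT, -0.38 for EEF2K, -0.41 for EIF3CL and -0.12 for EEF2. With DESeq2 size factors they were 0.0104 for EIF4E, 0.000646 for EIF4H and 0.0134 for EIF3H, and with DESeq2's Wald test 0.0141 for EIF4E, 0.00118 for EIF4H and 0.0133 for EIF3H. Limma-voom gave 0.00487 for EIF3H, no read filter -0.0264 for EIF3CL, protein-coding transcripts only -0.00940 for EIF3CL, and pseudogene reads added 0.0159 for EIF4E. With at least 10 reads in every library they were -0.0166 for EEF2KMT, -0.0245 for EEF2K and -0.0535 for EIF3CL. With the length trend removed they were 0.17 for EIF4G1, 0.40 for EIF4E, 0.10 for EIF3H, 0.29 for EIF4EBP2 and -0.0726 for EEF2KMT. Leaving out each library in turn, the slope ran from -0.25 to 0.0949 for EIF4G1, -0.0759 to 0.14 for EIF3H, -0.37 to 0.42 for EEF2K, -0.15 to 0.0472 for EIF4E, -0.16 to 0.11 for EIF4H, -0.00973 to 0.16 for EEF2KMT, -0.0254 to 0.0769 for EIF3CL, -0.00468 to 0.23 for EIF2AK1, -0.0266 to 0.41 for EIF4E2, -0.17 to 0.16 for EIF3B, -0.16 to 0.23 for EIF4EBP2 and -0.36 to 0.18 for EIF4ENIF1.

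No paired analysis was possible because each ratio has a single library. Depth limits members such as EIF4E3, EIF5A2, EEF1AKMT1 and EEF1AKMT3, which had 0 to 42 reads a library.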
